A study of Mus musculus with 12 samples.

Results

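10 genes of the bone morphogenetic protein (BMP) system were followed in OP9 cells, a mouse mesenchymal stromal line, on 12 expression arrays. They are 2 ligands (Bmp4 and Bmp2), the protease Bmp1, 3 secreted modulators (Bmper, Smoc1 and Grem1), the receptor Bmpr1a and 3 inhibitor of differentiation targets (Id1, Id2 and Id3). All probes that list these 10 symbols were taken, 19 of the 45281 probes on the array, whether or not they gave a signal, and the array names 19057 genes in all. Between 96 h of imatinib and vehicle, Bmp4 was 3.01-fold, Smoc1 2.73-fold and Id3 1.49-fold higher. Bmper was 2.77-fold higher against a vehicle level near background, and its log2 change went to 0.47 without background correction, against 1.47 with it. Id1 and Bmpr1a overlapped vehicle, while Bmp2 and Grem1 did not pass the detection filter. The genes were chosen by earlier results of these arrays, among them the log2 change of Bmp4 between 96 h of imatinib and vehicle. Their values are therefore a description. The fit's calls of these genes are counted only to set them beside the share over all genes, they are no test of a gene chosen this way, and they support no statement about imatinib and BMP signalling as a whole.

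The series asks how imatinib changes stromal cells that protect BCR-ABL-positive lymphoblastic leukaemia cells, and the arrays hold the stromal cells alone. Imatinib blocks a few tyrosine kinases, among them ABL, KIT and the receptors for PDGF. The 4 groups, of 3 arrays each, are vehicle labelled 0 h and imatinib labelled 32 h, 64 h and 96 h. Every sample is labelled as B6C3F1 op/op in strain, newborn calvaria in tissue and MSC in cell type, so all groups, vehicle included, come from 1 cell line with the op mutation of Csf1. Vehicle was labelled at 0 h only, while the series text can be read as vehicle given for the same times as imatinib, so exposure to the drug and time in culture cannot be told apart. Vehicle and 96 h samples carry array label 1 and 32 h and 64 h samples array label 2. Comparisons of 96 h with vehicle and of 64 h with 32 h lie within 1 array label. In the other 3 (32 h against vehicle, 64 h against vehicle and 96 h against 64 h), array label and group cannot be told apart. No label tells if replicates came from separate cultures, so every error below measures only the spread between these samples, which may be technical. The dose of imatinib is not among the labels.

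BMPs are secreted dimers that bind pairs of type I and type II receptor kinases. The activated type I receptor, of which BMPR1A is one, phosphorylates SMAD1, SMAD5 and SMAD9, which enter the nucleus with SMAD4 and raise transcription of the Id genes, the classic direct targets. Secreted proteins such as Noggin, Chordin and Gremlin hold the ligands away from the receptors, and in stromal cells of bone the pathway is known for driving osteoblast formation.

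RefSeq promoter windows (build GRCm38.p6, 250 bases before to 50 bases after each gene's start) were matched by symbol for 6 of the 10 genes. Those of the ligand gene Bmp4 and the modulator gene Bmper, both higher at 96 h, and of Id2 and Id3, the targets with a window, are printed from 5′ to 3′ on the gene's own strand. Capitals mark GGCGCC, a GC-rich sequence that SMAD proteins bind, and CAGAC or its reverse complement GTCTG, which holds the core of the SMAD-binding element. Both motifs were searched on both strands, and none of the matches overlapped another. The Bmp4 window lies at chr14:46390620-46390919 on the minus strand, Bmper at chr9:23222826-23223125 on the plus strand, Id2 at chr12:25096043-25096342 on the minus strand and Id3 at chr4:136143572-136143871 on the plus strand.
Bmp4: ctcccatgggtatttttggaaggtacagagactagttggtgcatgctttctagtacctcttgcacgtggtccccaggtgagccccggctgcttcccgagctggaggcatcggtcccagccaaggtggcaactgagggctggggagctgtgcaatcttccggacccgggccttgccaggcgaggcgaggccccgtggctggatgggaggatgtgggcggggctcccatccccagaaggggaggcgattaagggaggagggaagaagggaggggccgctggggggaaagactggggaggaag
Bmper: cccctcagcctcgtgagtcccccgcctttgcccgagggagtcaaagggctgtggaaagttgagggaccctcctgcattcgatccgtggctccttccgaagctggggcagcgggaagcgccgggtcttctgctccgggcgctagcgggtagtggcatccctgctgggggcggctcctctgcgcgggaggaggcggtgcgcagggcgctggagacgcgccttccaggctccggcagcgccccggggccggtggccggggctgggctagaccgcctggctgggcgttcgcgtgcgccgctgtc
Id2: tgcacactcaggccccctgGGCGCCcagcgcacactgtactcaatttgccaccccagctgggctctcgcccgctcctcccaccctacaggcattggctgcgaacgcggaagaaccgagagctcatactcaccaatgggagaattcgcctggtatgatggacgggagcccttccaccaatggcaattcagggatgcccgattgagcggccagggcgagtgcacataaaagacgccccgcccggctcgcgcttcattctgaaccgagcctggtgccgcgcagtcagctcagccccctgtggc
Id3: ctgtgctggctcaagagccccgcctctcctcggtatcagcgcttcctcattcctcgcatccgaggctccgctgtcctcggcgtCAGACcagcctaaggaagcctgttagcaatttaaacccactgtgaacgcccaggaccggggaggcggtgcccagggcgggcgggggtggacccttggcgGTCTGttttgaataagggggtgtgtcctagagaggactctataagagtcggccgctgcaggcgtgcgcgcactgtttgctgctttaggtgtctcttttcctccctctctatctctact
The Bmp4 and Bmper windows held neither motif. The Id2 window held GGCGCC, its first base 231 bases before the start (-231), and the Id3 window held CAGAC at -167 and GTCTG at -68. Among the matched windows not printed, that of the modulator gene Grem1 held both motifs, GGCGCC at -78 and CAGAC at -219 and 18. The window of the receptor gene Bmpr1a held GGCGCC at -198. The motifs therefore did not set the Id genes apart from the other genes. Of 32851 mouse promoter windows of 300 bases, 11.9% held GGCGCC, 49.6% held CAGAC on either strand and 5.24% held both, so the matches are common and are given as a description of these letters only.

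Levels are log2 intensities after background correction, with an offset of 16 added, and quantile normalization. A probe counted as detected on an array when its detection p, which compares its signal with control probes that match no transcript, was under 0.05. Of the 19 probes, 12 were detected on all arrays and 3 on none. The fit used 15 of them, which were detected on at least 3 arrays, and they represent 8 of the 10 genes. Bmp2 and Grem1 did not pass that filter. Changes are log2 differences ± the standard error (SE) of the limma fit to all 12 arrays. In these bulk samples, fewer cells of a type and less RNA per cell cannot be told apart.

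Bmp4 encodes a secreted ligand of the BMP receptors, and its level was higher at each later labelled time. The log2 intensity on the 3 arrays was 9.61, 9.77 and 9.50 with vehicle at 0 h, 10.35, 10.02 and 10.16 at 32 h, 10.59, 10.78 and 10.62 at 64 h, and 11.20, 11.24 and 11.21 at 96 h. No array of one time overlapped those of the next, and the 3 arrays at 96 h lay closest together. Bmp4 averaged 11.21 ± 0.02 at 96 h and 9.63 ± 0.14 with vehicle (SD, n = 3 each). The log2 difference was 1.59 ± 0.12, which is 3.01-fold. The steps between neighbouring times were close to equal, at 0.55 ± 0.12 to 32 h, 0.49 ± 0.12 to 64 h and 0.55 ± 0.12 to 96 h. Only the middle step lies within 1 array label, and the log2 difference between 64 h and vehicle was 1.04 ± 0.12 (2.05-fold). These values come from 1 of 2 Bmp4 probes. The other is annotated to a RefSeq transcript as well, lay between 4.24 and 4.70 and was detected on none of the 12 arrays.

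Bmp2 encodes the second ligand, which is close in sequence to BMP4. Its single probe lay between 4.21 and 4.88 and was detected on 1 array, vehicle replicate 3. It gives no measured level in either direction, which says only that this probe was not above background on the other 11 arrays.

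Bmp1 encodes a tolloid-type metalloprotease that cuts procollagens and the BMP antagonist Chordin and is not itself a BMP ligand. Its level was 10.25, 10.02 and 10.10 with vehicle, 10.16, 9.996 and 10.07 at 32 h, 10.18, 10.21 and 10.29 at 64 h, and 10.40, 10.46 and 10.25 at 96 h. The 96 h and vehicle arrays overlapped by the lowest array at 96 h. The log2 difference between 96 h and vehicle was 0.25 ± 0.12. Of the other 4 Bmp1 probes, 3 were fitted. Their differences were 0.35 ± 0.14, 0.20 ± 0.15 and -0.26 ± 0.24, the last from a probe detected on 4 arrays. The remaining probe was detected on none.

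**Figure D1:**
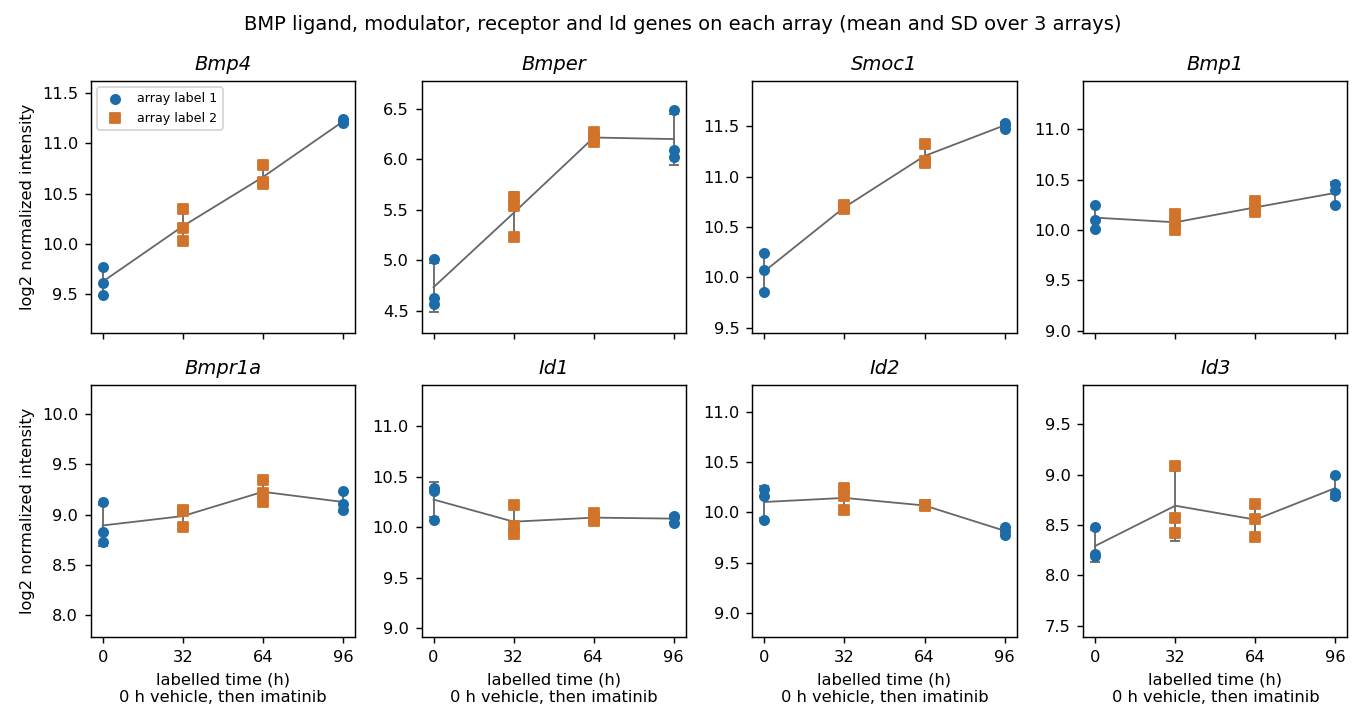
Log2 normalized intensity (vertical axis) against labelled time in hours (horizontal axis; 0 h is vehicle, the later times imatinib) for the 8 genes that passed the detection filter. Circles are arrays of array label 1, squares of array label 2, and the line with bars joins the mean ± SD of 3 arrays. All panels span the same height. Bmp4, Bmper and Smoc1 climb, with Bmper level between 64 h and 96 h, while Id1 stays within 9.93 to 10.38.

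Bmper encodes a secreted protein that binds BMPs directly and is known both to oppose and to help their signalling. Its level was 4.56, 4.62 and 5.01 with vehicle, 5.63, 5.23 and 5.54 at 32 h, 6.27, 6.17 and 6.21 at 64 h, and 6.02, 6.49 and 6.09 at 96 h. The probe was detected on 1 of 3 vehicle arrays and on every imatinib array, and no imatinib array overlapped the vehicle arrays. Bmper averaged 6.20 ± 0.25 at 96 h and 4.73 ± 0.24 with vehicle (SD, n = 3 each). That is a log2 difference of 1.47 ± 0.16 (2.77-fold). Bmper was higher by 0.74 ± 0.16 at 32 h than with vehicle, and by 0.75 ± 0.16 at 64 h than at 32 h, which is a step within 1 array label. Between 96 h and 64 h the difference was -0.02 ± 0.16, with a 95% interval of -0.36 to 0.32, and the arrays overlapped. Since its vehicle level lay near background, the size of its change depends on the background correction, and without that correction the log2 difference between 96 h and vehicle was 0.47.

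Smoc1 encodes a secreted, calcium-binding protein of the basement membrane that inhibits BMP signalling in frogs. Its level was 9.86, 10.25 and 10.07 with vehicle, 10.72, 10.68 and 10.69 at 32 h, 11.14, 11.15 and 11.32 at 64 h, and 11.47, 11.54 and 11.52 at 96 h. As with Bmp4, no array of one time overlapped those of the next. Smoc1 averaged 11.51 ± 0.03 at 96 h and 10.06 ± 0.19 with vehicle (SD, n = 3 each). The log2 difference was 1.45 ± 0.12 (2.73-fold). Its steps were 0.64 ± 0.12 to 32 h, 0.51 ± 0.12 to 64 h and 0.30 ± 0.12 to 96 h. A second Smoc1 probe, annotated to a GenBank record that is not a RefSeq transcript, was detected on 6 of 12 arrays and showed another pattern. It averaged 4.80 ± 0.25 at 96 h and 4.59 ± 0.38 with vehicle, a log2 difference of 0.21 ± 0.18. At 64 h it averaged 5.24 ± 0.21, which was 0.65 ± 0.18 above vehicle.

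Grem1 encodes Gremlin, a secreted antagonist that binds BMP2 and BMP4. Its single probe lay between 4.26 and 4.64 and was detected on none of the 12 arrays, so no level of this antagonist can be given.

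Bmpr1a encodes a type I receptor for BMP2 and BMP4. Its level was 8.73, 8.83 and 9.12 with vehicle, 8.88, 9.04 and 9.04 at 32 h, 9.12, 9.21 and 9.34 at 64 h, and 9.04, 9.11 and 9.23 at 96 h. The 96 h arrays overlapped the vehicle arrays, while those at 64 h lay just above them (lowest 9.125, against a highest vehicle array of 9.1223). The log2 difference between 96 h and vehicle was 0.23 ± 0.13, with a 95% interval of -0.04 to 0.51, and that between 64 h and vehicle was 0.33 ± 0.13. The second Bmpr1a probe differed by 0.08 ± 0.14 between 96 h and vehicle.

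The Id genes encode helix-loop-helix proteins without a DNA-binding region, which keep basic helix-loop-helix factors off DNA. Id1, the target most often used as a readout of BMP signalling, had a level of 10.08, 10.36 and 10.38 with vehicle, 10.22, 10.01 and 9.93 at 32 h, 10.14, 10.06 and 10.08 at 64 h, and 10.10, 10.11 and 10.04 at 96 h. The arrays of all 3 imatinib groups overlapped those of vehicle. The log2 difference from vehicle was -0.22 ± 0.12 at 32 h, -0.18 ± 0.12 at 64 h and -0.19 ± 0.12 at 96 h. The 95% interval at 96 h ran from -0.45 to 0.07, which leaves room for a lower level and for a slightly higher one.

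Id2 had a level of 10.16, 10.23 and 9.92 with vehicle, 10.25, 10.03 and 10.16 at 32 h, 10.07, 10.06 and 10.07 at 64 h, and 9.82, 9.86 and 9.78 at 96 h. The 96 h arrays lay below every other array, and those at 32 h and 64 h overlapped vehicle. The log2 difference between 96 h and vehicle was -0.29 ± 0.12. The 2 other Id2 probes gave different estimates, with 95% intervals that overlapped (-0.75 to -0.19 and -0.44 to 0.34). One, annotated to a GenBank record outside RefSeq, averaged 7.59 ± 0.12 at 96 h and 8.06 ± 0.19 with vehicle, a difference of -0.47 ± 0.13. The other differed by -0.05 ± 0.18, with overlapping arrays.

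Id3 was higher at 96 h. Its level was 8.19, 8.21 and 8.48 with vehicle, 8.42, 9.08 and 8.57 at 32 h, 8.56, 8.71 and 8.38 at 64 h, and 8.81, 8.79 and 8.997 at 96 h. The 96 h arrays lay above all vehicle arrays, and the 32 h and 64 h arrays overlapped them, with 1 array at 32 h the highest of all. The log2 difference between 96 h and vehicle was 0.57 ± 0.16 (1.49-fold). At 32 h it was 0.40 ± 0.16 and at 64 h 0.26 ± 0.16.

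**Figure D2:**
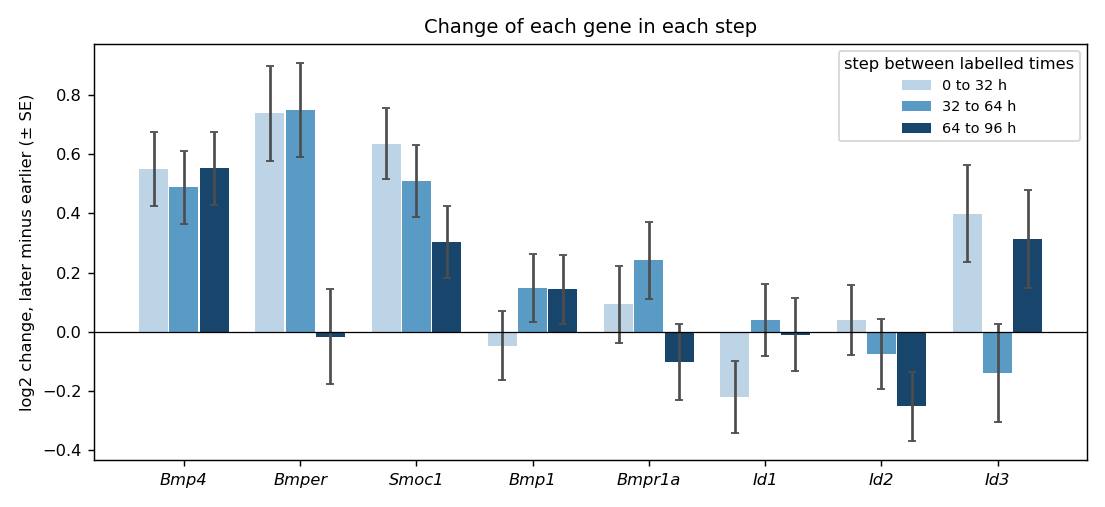
Log2 change ± SE (vertical axis) of each gene in each step between neighbouring labelled times, later minus earlier, from the limma fit. The 3 Bmp4 steps are alike (0.49 to 0.55), the Bmper change ends at 64 h (-0.02 in the last step), and the Id1 steps lie between -0.22 and 0.04. Of the 3 steps, the middle one (32 to 64 h) lies within 1 array label.

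A gene was counted as called when the Benjamini-Hochberg adjusted p of its representative probe, taken over all 18897 fitted probes, was under 0.05. The representative is the fitted probe of the gene with the highest mean level. At 96 h against vehicle, 4 of the 8 fitted genes were called higher (Bmp4, Bmper, Smoc1 and Id3) and 0 lower, where 7.51% of all 10211 genes were called higher and 7.37% lower. At 64 h against vehicle, Bmp4, Bmper and Smoc1 were called higher, where 6.33% of all genes were called higher and 6.08% lower. At 32 h against vehicle these 3 genes were called higher again, where 2.09% of all genes were called higher and 2.08% lower. Bmper alone was called at 64 h against 32 h, higher, where 0.656% of all genes were called higher and 0.578% lower. At 96 h against 64 h limma called 0 of the 8, where 0.255% of all genes were called in either direction. Of the 8, 3 had an unadjusted p under 0.05, for which no share over all genes was counted. The genes were chosen with these contrasts known, so nothing is read from these shares. The comparisons with vehicle share the vehicle arrays, and their counts are not independent of each other.

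The median log2 change of the 8 fitted genes against vehicle was 0.25 at 32 h, 0.30 at 64 h and 0.41 at 96 h. Over all genes it was 0.00 each time. These medians are over genes that passed a detection filter, which Bmper passed through its imatinib arrays. Several of the calls ended when 1 array was left out, at changes close to those with all arrays. Id3 at 96 h was no longer called without vehicle replicate 1 or 2 or without any one of the 3 arrays at 96 h, at log2 changes of 0.51 to 0.61, nor with no detection filter. Bmp4 at 32 h was no longer called without vehicle replicate 1 or 3 or 32 h replicate 1 or 3 (0.46 to 0.56), nor Bmper at 32 h without vehicle replicate 1 or 2 or 32 h replicate 1 or 3 (0.65 to 0.70). Bmper at 64 h against 32 h was no longer called without any one array of either group or without vehicle replicate 2 (0.63 to 0.83). The Bmp4 call at 32 h also ended with only the arrays compared in the fit, and the Bmper call at 32 h with no background correction, at a log2 change of 0.20.

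Single probes beside the representatives gave 2 more calls. The Id2 probe outside RefSeq was called lower at 96 h against vehicle, where 13.3% of all fitted probes were called, and the second Smoc1 probe was called higher at 64 h against vehicle, where 11.7% were. The Id2 call ended without vehicle replicate 1 or 2 or 96 h replicate 1 or 2 (-0.46 to -0.39), and with each array label normalized alone (-0.47). The Smoc1 call ended without vehicle replicate 1 or 3 or 64 h replicate 2 or 3 (0.54 to 0.67), with no filter, with only the arrays compared, and with no background correction, where the log2 change was 0.20.

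**Figure D3:**
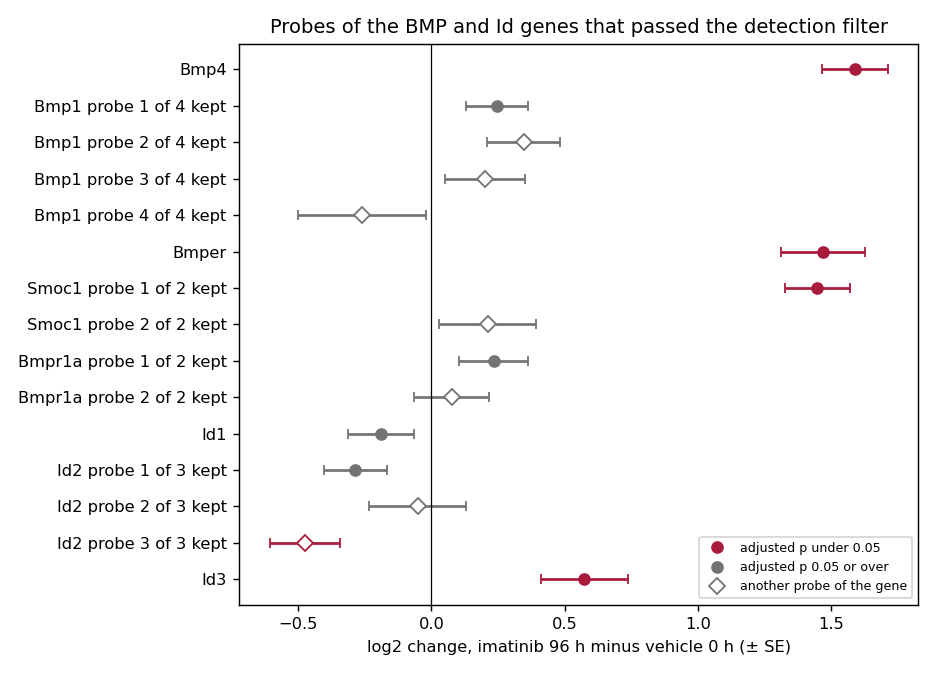
Log2 change ± SE (horizontal axis) between imatinib at 96 h and vehicle at 0 h for the 15 probes that passed the detection filter. Filled circles are the probe that represents a gene, open diamonds its other probes, and red marks an adjusted p under 0.05. Estimates of the Bmp1, Smoc1 and Id2 probes spread within each gene. The Bmp1 probe with a negative change (detected on 4 arrays) and the second Smoc1 probe (on 6) lay near background. The Bmp4 (1.59), Bmper (1.47) and first Smoc1 (1.45) probes stand to the right of all others.

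The other genes of the pathway were read from a list of 57, chosen with earlier results of these arrays known. Eng, Sp7 and Hey1 were left off it because their results were already known. Of the 57, 52 had a probe and 20 passed the detection filter. At 96 h against vehicle, 5 of the 20 rose and 2 fell (7.51% of all genes were called higher and 7.37% lower), with a median log2 change of 0.06. At 64 h against vehicle, 4 rose and 3 fell (6.33% and 6.08% of all genes), with a median of 0.14. At 32 h against vehicle 1 rose (2.09% of all genes), and at 64 h against 32 h 1 fell (0.578% of all genes). At 96 h against 64 h limma called 0 of the 20 (0.255% of all genes were called in either direction), with 3 at an unadjusted p under 0.05. No share over all genes was counted for the unadjusted p, so nothing is read from that count.

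Among 13 further ligand genes, only Bmp15, an oocyte growth factor, passed the filter, at a log2 difference of -0.16 ± 0.18 between 96 h and vehicle. Its probe lay near background, detected on 2 vehicle arrays, 0 at 32 h, 2 at 64 h and 1 at 96 h. Of 10 receptors and co-receptors, 4 were fitted and 1 rose. Rgma encodes a membrane-bound co-receptor that helps BMPs bind their receptors. It averaged 9.17 ± 0.18 at 96 h and 8.70 ± 0.22 with vehicle, a rise of 0.47 ± 0.14 (adjusted p = 0.0427, limma). It was also called at 64 h against vehicle (0.50 ± 0.14, adjusted p = 0.0375). Without vehicle replicate 2 the adjusted p was 0.169 at 96 h and 0.150 at 64 h, the highest over the alternatives. The 96 h call ended as well without vehicle replicate 1, 96 h replicate 1 or 2, 32 h replicate 1 or 64 h replicate 1, and the 64 h call without vehicle replicate 1 or any array at 64 h. The type II receptor Bmpr2 and the type I receptor Acvr1 did not pass at 96 h, at 0.43 ± 0.15 (adjusted p = 0.0650) and 0.35 ± 0.11 (adjusted p = 0.0560), though each was called under 6 alternatives, among them no background correction, median scaling and the strict filter.

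Of 19 secreted antagonists and modulators, 6 were fitted, and at 96 h 2 of them rose and 1 fell. Fst encodes follistatin, which binds activins and, less tightly, BMPs. Its level was 9.24, 9.18 and 9.13 at 96 h, against 8.44, 8.15 and 8.19 with vehicle, without overlap. It rose by 0.93 ± 0.12 at 96 h (1.90-fold, adjusted p = 6.89e-05) and by 0.71 ± 0.12 at 64 h against vehicle (adjusted p = 0.00108). Crim1, a membrane protein that binds BMPs, rose by 0.71 ± 0.14 at 96 h (adjusted p = 0.00227), and its second probe by 0.76 ± 0.16.

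Chrd, which encodes the antagonist Chordin, fell. Its level was 6.14, 5.97 and 5.88 at 96 h, against 6.76, 6.72 and 6.74 with vehicle, without overlap. It fell by 0.74 on the log2 scale at 96 h (SE 0.14, adjusted p = 0.00178). At 64 h it averaged 6.16 ± 0.14, against 6.78 ± 0.26 at 32 h. That difference, within 1 array label, was -0.62 ± 0.14 (adjusted p = 0.0499). It was lost in 17 of 23 alternatives, with an adjusted p of up to 0.189, among them leaving out any vehicle, 96 h or 64 h array or 32 h replicate 1 or 2. The fall at 64 h against vehicle (-0.58 ± 0.14, adjusted p = 0.0131) was lost without 64 h replicate 2 (adjusted p = 0.0598). Twsg1, which encodes a partner of Chordin, was at 0.27 ± 0.16 at 96 h (adjusted p = 0.306). Nbl1, an antagonist of the DAN family, was called lower at 64 h against vehicle (-0.39 ± 0.12, adjusted p = 0.0467). Its second probe was at 0.03 ± 0.22 there, and with the mean of both probes the adjusted p was 0.476. The Nbl1 call ended without any one vehicle or 64 h array, 96 h replicate 3 or 32 h replicate 2 or 3 (adjusted p up to 0.133).

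Of 8 Smad genes and Smad regulators, 4 were fitted, and limma called 0 of them in any of the 5 comparisons. At 96 h against vehicle 0 of the 4, and at 64 h and 32 h against vehicle 1 of the 4 each, had an unadjusted p under 0.05. The share of all genes under that unadjusted p was not counted. Smad1, a signal carrier that the type I receptors phosphorylate, was at 0.15 ± 0.12 at 96 h (adjusted p = 0.475). A further Smad1 probe was at 0.44 ± 0.14 (adjusted p = 0.0471), and a further one at 0.01 ± 0.16. The representative Smad1 probe averaged 9.42 ± 0.03 with vehicle, 9.73 ± 0.15 at 32 h and 9.78 ± 0.09 at 64 h (SD, n = 3 each). Its 32 h and 64 h arrays did not overlap vehicle. At 64 h against vehicle it was called higher with no background correction, the strict filter or offset 50 (0.32 to 0.37). At 32 h it was called with no background correction (0.28).

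Of 7 further target genes, 5 were fitted, and at 96 h 2 rose and 1 fell. Id4, the fourth gene of the Id family, had a level of 8.41, 8.30 and 8.602 with vehicle, 9.05, 9.04 and 8.85 at 32 h, 9.58, 9.15 and 9.19 at 64 h, and 9.72, 9.80 and 9.69 at 96 h, and no array of one time overlapped those of the next. It rose by 1.30 ± 0.14 at 96 h (2.46-fold, adjusted p = 8.84e-06) and by 0.87 ± 0.14 at 64 h (adjusted p = 0.000570) against vehicle. Its second probe rose by 0.98 ± 0.13 at 96 h. The Id4 rise at 32 h (0.54, adjusted p = 0.0386) ended without vehicle replicate 1 or 2 or without any one 32 h or 96 h array (adjusted p up to 0.154). Atoh8, a helix-loop-helix factor gene, rose by 0.96 ± 0.15 at 96 h (adjusted p = 0.000379). Dlx3, a homeobox gene induced by BMPs in bone and skin, fell by 1.09 on the log2 scale at 96 h (SE 0.15, adjusted p = 0.000138). It averaged 5.13 ± 0.08 at 96 h and 6.23 ± 0.12 with vehicle. At 96 h Dlx3 lay near background, with raw signals of 116 to 124 intensity units, against 159 to 177 with vehicle. The size of its fall may therefore depend on the background correction. Msx1, a homeobox target, was at -0.34 ± 0.18 (adjusted p = 0.273). Fst, Atoh8, Id4 and Dlx3 in the 64 h and 96 h comparisons with vehicle, and Crim1 and Chrd at 96 h, were called with each array left out in turn.

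**Figure D4:**
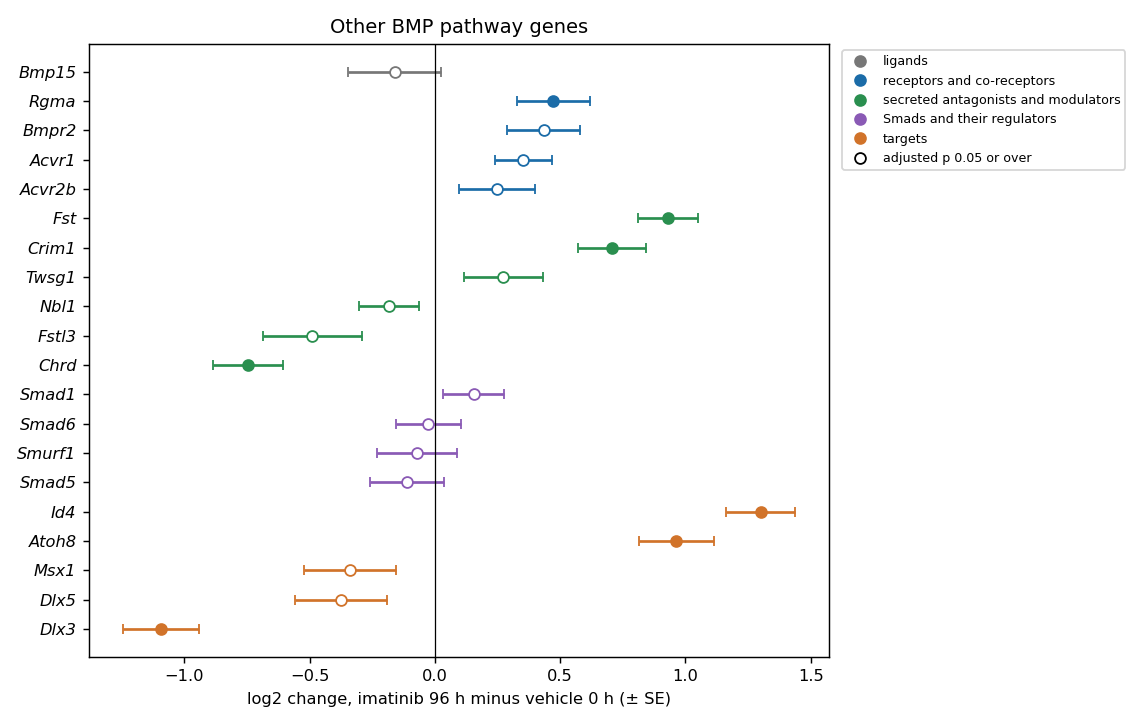
Log2 change ± SE (horizontal axis) between imatinib at 96 h and vehicle at 0 h for the 20 other BMP pathway genes that passed the detection filter, coloured by role. Filled points have an adjusted p under 0.05. Id4, Atoh8, Fst, Crim1 and Rgma lie to the right of 0 and Chrd and Dlx3 to its left, while the 4 Smad genes and regulators lie between -0.11 and 0.15.

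The genes whose levels followed Bmp4 most closely over the 12 arrays were Rarres2, which encodes the chemoattractant chemerin (Pearson's r = 0.981), Dipk1a (r = 0.980), the sorting receptor gene Sort1 (r = 0.978), the RNA-editing enzyme gene Adarb1 (r = 0.976) and Islr (r = 0.976). Within the 10 genes, Smoc1 (r = 0.969) and Bmper (r = 0.895) were nearest to Bmp4, while Id1 had r = -0.42 with it, Id2 r = -0.61 and Id3 r = 0.59. The genes most like Id1 were Prpf40b (r = 0.877), Tmem150c (r = 0.855), Pdxk (r = 0.850), Knstrn (r = 0.840) and Pemt (r = 0.835). Of these, Tmem150c and Pemt lay near background. Tmem150c was detected on 2 vehicle arrays, 1 array at 32 h and 0 at 64 h and 96 h. Pemt was detected on 3 vehicle arrays, 1 array at 32 h, 3 at 64 h and 1 at 96 h. The correlations are descriptions over arrays that form 4 groups, and the order of the labelled times is shared by all of the genes that changed with it.

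Over all probes, the median raw signal was 104 to 112 intensity units, 35.7 to 38.3% of probes were detected on an array, and arrays of 1 group correlated at r = 0.988 to 0.991. Along the third principal component, 32 h replicate 3 (-20.4) and 64 h replicate 3 (20.2) lay apart from the rest of their groups (-5.52 to -3.66 and -0.62 to 8.77). Along the fourth, the 64 h arrays were spread out, with replicate 1 at 2.13, replicate 2 at 24.9 and replicate 3 at -18.0. Without 64 h replicate 2, 4 other pathway genes were called at 64 h against vehicle, against 7 with it. Without both replicate 3 arrays, Smoc1 alone of the 10 genes was called at 32 h against vehicle and 0 at 64 h against 32 h. The cells carried stromal markers: 10 of 12 with a probe, among them Pdgfra, Pdgfrb, Col1a1 and Vim, were detected on all arrays, and Thy1 and Nt5e did not pass the filter. Their summed intensity was 14983 to 15690 at 96 h and 18233 to 20182 with vehicle, where Vim was lower at 96 h by a log2 difference of -0.87. Osteoblast markers (4 of 6 fitted) summed to 311 to 316 at 96 h and 401 to 430 with vehicle. Of 5 myeloid markers with a probe, Adgre1, Csf1r and Cd14 were fitted and summed to 80.8 to 99.2 at 96 h and 115.1 to 135.4 with vehicle, while Ptprc and Itgam did not pass. Of 4 epithelial markers, Krt8 and Cdh1 were fitted and summed to 70.2 to 75.4 at 96 h and 57.0 to 63.5 with vehicle. The stromal, myeloid, epithelial and osteoblast sums did not overlap between 96 h and vehicle. Those of the fitted adipocyte (Lep, 1 of 4), B lymphoid (Ms4a1, 1 of 3), endothelial (Pecam1 and Kdr, 2 of 6) and muscle (Des, 1 of 4) markers overlapped, and Fabp4, Plin1, Cidec, Cd79b and Pax5 did not pass. Of the fitted markers, 0 of 3 myeloid, 1 of 2 epithelial and 2 of 4 osteoblast ones were detected on all arrays, so these sums hold probes near background. The part of these markers in the BMP values was not tested.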

How the data were processed

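Total RNA of 12 samples was hybridised as biotin-labelled cRNA to Illumina BeadChips. The authors deposited, per the file headers, a non-normalized table that pairs the linear signal intensity of every probe and array with a detection p-value. The authors also deposited normalized intensity values. The submitters' processing notes name limma. Which version and settings were used is not stated in the sources at hand. The deposited normalized values, on a log2 scale, differed from the log2 values computed here by at most 0.0193.

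Values were computed from the deposited non-normalized table with limma 3.58.1 in R 4.3.3, which read the files with version 1.17.8 of data.table. Its neqc function used the detection p-values to correct for background, and quantile normalization and log2 followed, with an offset of 16. By the platform annotation, 34885 of 45281 probes have 1 gene symbol, 18 have several and 10378 have none. Probes with detection p under 0.05 on at least 3 arrays were fitted (18897), and the fitted probe with the highest mean represented a gene (10211 genes). The limma model held 1 mean for each of the 4 groups, over all 12 arrays (8 residual degrees of freedom) with Benjamini-Hochberg adjustment over the fitted probes, and a gene rose or fell at adjusted p under 0.05. The fit was tested on simulated data. The number of arrays limits the precision, with a median SE of 0.15 on the log2 scale.

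The members, lists, tests and alternatives were chosen with earlier results of these data known, and the direction of the Bmp4 change is no independent evidence. Named were all 10 genes, every other pathway gene called in a comparison, the uncalled gene of each role with the highest level, and the 5 genes most correlated with Bmp4 and with Id1. Promoter windows came from RefSeq, build GRCm38.p6. Bmp2, Bmp1, Smoc1 and Id1 windows were not used here. Python 3.11.15 with matplotlib 3.10.9 drew the figures. Alternatives covered the background correction, normalization, filter, offset, probes per gene, samples in the fit, a replicate block, the deposited normalized values and each array left out. No sample was left out of the fit.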

Additional observations from a re-analysis of the deposited data

How the results depend on the processing

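With no alternative did a called change turn its sign. The counts of called genes at 96 h against vehicle (4 of the 10 genes and 7 other pathway genes) kept within 1.5 times under all 23 alternatives. With 1 array left out they were 3 to 4 and 6 to 7. With no background correction, Bmp1 was called higher (0.23) and Id2 lower (-0.26) at 96 h as well. The count of 3 at 64 h against vehicle also kept within 1.5 times under all 22 alternatives, and was 3 to 3 with 1 array left out. Bmpr1a was called higher at 64 h as well with no background correction (0.28) or offset 50 (0.31). The 7 other pathway genes at 64 h became 4 to 7 with 1 array left out, the 4 without 64 h replicate 2. Further genes were called higher at 64 h under some settings. These were Bmpr2, Smad1 and Acvr1 with no background correction, Bmpr2 and Smad1 with offset 50, and Smad1 with the strict filter. Crim1 was called with a mean over each gene's probes, without 64 h replicate 3, and without the 32 h and 64 h replicate 3 arrays. At 64 h against 32 h the single gene of the 10, Bmper, became 3 (with Bmp4 and Smoc1) with no background correction, the strict filter (a group's 3 arrays all with detection p under 0.01), offset 50 or a mean over each gene's probes, and 0 with only the arrays compared or with the 32 h and 64 h replicate 3 arrays left out together. Leaving out 1 array gave 0 to 1. With no filter the count was 1, but Smoc1 was called and Bmper was not. There the single other pathway gene, Chrd, became 2 (with Fst) under those first 4 settings, 0 under the last pair of settings, with median scaling and with each array label normalized alone, and 0 to 1 with 1 array left out. At 32 h against vehicle the 3 genes became 1 without that pair of arrays and 1 to 3 with 1 array left out, the 1 without vehicle replicate 1 or 32 h replicate 1 or 3. Id4, the single other pathway gene, became 2 with no background correction (with Smad1), 0 with only the arrays compared or without the pair, and 0 to 1. At 96 h against 64 h the 0 of the 10 genes became 1 (Bmp4) with no background correction, the strict filter or offset 50, and stayed at 0 to 0 with 1 array left out, as did the 0 other pathway genes. The causes were not tested. The share of all genes called is not given for these alternatives, so the moved counts say nothing particular to these genes.

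The replicate numbers showed no clear pairing of the samples. Same-numbered arrays had deviations correlated at -0.02 to 0.05 between groups, 0 of 18 pairs over 0.1, and other-numbered arrays at -0.04 to 0.04. Of the 12 arrays, 7 correlated best with their own number, and these values cannot tell a weak pairing from none. With the replicate number as a block, 0 of the 10 genes and 0 other pathway genes were called at 64 h against 32 h, 0 other pathway genes at 32 h against vehicle, and the Nbl1 call at 64 h against vehicle ended (adjusted p = 0.0525, over the alternatives up to 0.476). Bmper with vehicle lay near background, and its log2 change at 96 h ran from 0.47 to 1.61 over the alternatives.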
